A study of Bos taurus with 6 samples.

Results

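The genes described here act in the last part of the cell cycle: G2, mitosis and the division of the cell. They are 38 genes chosen by symbol from a list of G2/M, spindle and mitosis genes. All 38 symbols were found in the deposited count table, each on 1 of its 28200 rows, and all 38 passed the filter on low counts. RNA came from 3 libraries of primary mammary epithelial cells of Holstein cattle with the KLF6 gene knocked out by CRISPR/Cas9, and from 3 libraries of wild-type cells of the same kind. The cells were taken from the mammary tissue of cows with enzymes and by culture, and no drug or other agent is named for either genotype. The comparison asks how RNA levels differ when KLF6, a zinc-finger transcription factor, is disrupted. No guide, clone or control vector is described, and the labels leave unsaid whether the libraries of a genotype come from separate cultures, so a p-value here speaks only of the variation among these 6 libraries, which may in part be technical.

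Mitosis is driven by cyclin B and cyclin A bound to the kinase CDK1, which CDC25 phosphatases switch on. Polo and Aurora kinases then build the spindle, kinetochores attach chromosomes to its microtubules, and a checkpoint holds the cell until every chromosome is attached. CDC20 activates the anaphase-promoting complex, a ubiquitin ligase that destroys cyclin B and securin with the help of UBE2C and UBE2S, and cytokinesis follows. Transcription of many of these genes peaks in G2 and M, under FOXM1, B-MYB and the DREAM complex, and their RNA is commonly used as a sign of proliferation, in mammary epithelium too. Roles below are those known from human cells and other model organisms.

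The libraries held between 17758180 and 18724879 counts in the knockout and between 17512892 and 18341853 in wild type. Levels are given in CPM, counts scaled to a library of 1000000 after edgeR's TMM factors. KLF6 itself was at 224, 230 and 217 CPM in the knockout libraries and at 503, 496 and 558 CPM in wild type, a log2 fold change of -1.21 ± 0.05 (edgeR adjusted p = 2.25e-13), so its RNA was lower but not absent. Counts per gene do not show the edit itself. Epithelial markers were present in both genotypes at unequal levels. Of the 8 luminal markers, EPCAM (a mean of 167 CPM in the knockout and 165 CPM in wild type) and CDH1 (290 CPM in the knockout and 306 CPM in wild type) were not called, and KRT8, KRT18, KRT19, ELF3, CLDN4 and MUC1 fell. KRT8 averaged 2450 CPM in the knockout and 7564 CPM in wild type, and the basal keratin gene KRT5 2018 CPM in the knockout and 4679 CPM in wild type. The basal keratin gene KRT14 rose, at 515 CPM in the knockout and 304 CPM in wild type. So did the basal marker CDH3, at 212 CPM in the knockout and 76.3 CPM in wild type. The basal markers KRT17, TP63 and ACTA2 fell, as did KRT5. Wild-type replicate 3 was the least like its group. Its counts differed from the other wild-type libraries with a mean chi-square per gene of 8.87 and 8.86, where counting error alone gives 1, and the other pairs within a genotype had 2.25 to 2.74.

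Almost all of the 38 genes were higher in the knockout libraries. By edgeR's quasi-likelihood test with Benjamini-Hochberg adjustment over 13390 genes at 0.05, 37 of the 38 rose and 0 fell (0 fell also by DESeq2 and by limma-voom, and 0 had a value below 0), beside 37.1% of all tested genes that rose and 37.6% that fell (74.6% called in either direction). The exception was CDC25B. For 37 of the 38 every knockout library lay above every wild-type library, which was so for 37.9% of all tested genes. The changes were moderate in size. The median log2 fold change was 0.79 for the 38 genes and -0.01 for all tested genes. At least 2-fold higher were 11 of the 38, another 18 lay between 1.5-fold and 2-fold, and 9 were under 1.5-fold. By edgeR's glmTreat, which tests whether a change exceeds 1.5-fold, 22 of the 38 passed, beside 15.2% of all tested genes that were called higher in that way.

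**Figure D1:**
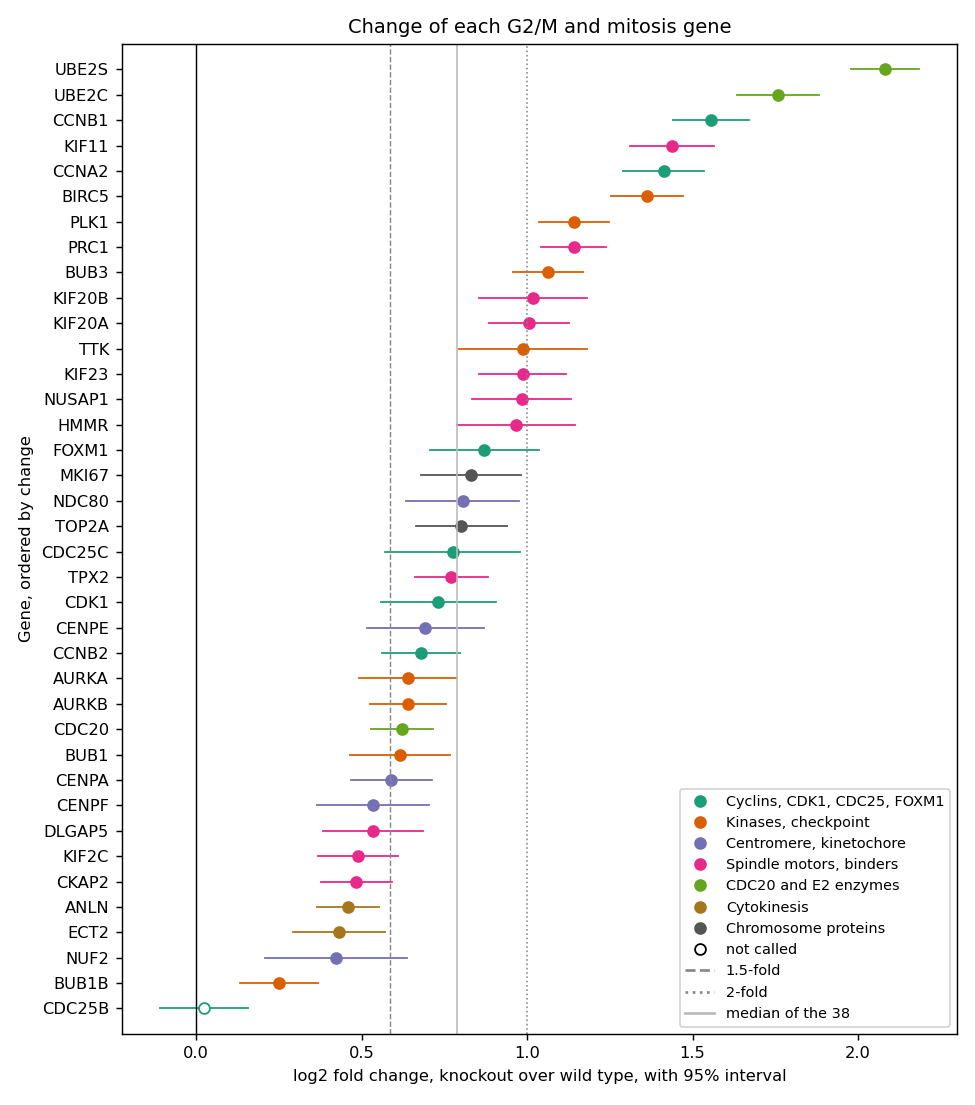
Log2 fold change (knockout over wild type) of the 38 genes, ordered by size and coloured by role, with the 95% interval of the edgeR fit as a line. UBE2S, UBE2C and CCNB1 stand at the top with 2.08, 1.76 and 1.55, and CDC25B, the open circle at 0.02, is the only gene not called.

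The summed level of the 38 genes was 5093, 5292 and 5249 CPM in the knockout libraries and 2579, 2633 and 2451 CPM in wild type. The knockout sum was thus 2.04 times that of wild type, and the groups did not overlap. UBE2S alone made up 15.7%, 15.4% and 15.8% of the sum in the knockout libraries and 7.85%, 7.42% and 7.31% in wild type. Without UBE2S the sums were 4397 ± 96.5 CPM in knockout cells and 2362 ± 83.8 CPM in wild type (SD, n = 3 each), 1.86 times as high. In bulk RNA, a larger share of cells in G2 and M and more of these RNAs per cell cannot be told apart.

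**Figure D2:**
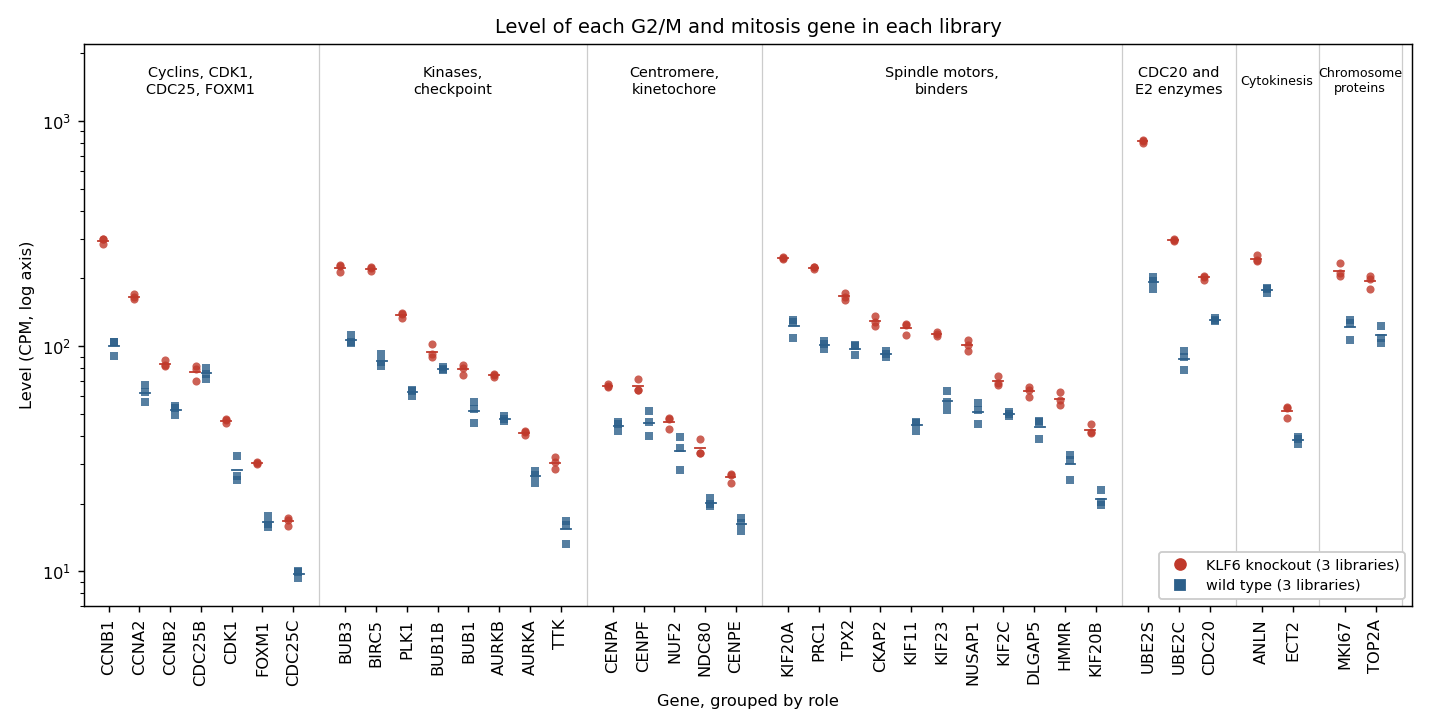
Level of each of the 38 genes in each library, in CPM on a log axis, grouped by role. Circles are the 3 knockout libraries and squares the 3 wild-type libraries, with short lines at the means. The squares lie below the circles for all genes except CDC25B, and UBE2S has the highest level of all.

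The ubiquitin enzymes of mitotic exit had the largest values of the 38. UBE2S (ENSBTAG00000009211, chromosome 18, 62089250 to 62093134 in the coordinates of the count table, whose build is not named in the sources) encodes the enzyme that elongates ubiquitin chains on targets of the anaphase-promoting complex. It was at 802, 813 and 828 CPM in the knockout libraries and at 203, 195 and 179 CPM in wild type. The 2 groups stood far apart, with a log2 fold change of 2.08 ± 0.05 (SE), or 4.23-fold (edgeR adjusted p = 9.00e-17). UBE2C (chromosome 13, 74586517 to 74593327), which starts those chains, was at 299, 297 and 294 CPM in the knockout libraries, against 95.3, 89.8 and 78.2 CPM in wild type. All knockout libraries were above all wild-type libraries, by 1.76 ± 0.06 on the log2 scale (edgeR adjusted p = 2.30e-14). CDC20, the activator that brings targets to the complex, stood at 204, 197 and 206 CPM in knockout and at 133, 131 and 129 CPM in wild type. Its groups did not overlap either, but its change of 0.62 ± 0.04 was smaller (edgeR adjusted p = 4.81e-10) and did not pass the test against 1.5-fold (glmTreat adjusted p = 0.202).

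Of the 7 genes for mitotic cyclins, CDK1, CDC25 phosphatases and FOXM1, 6 rose. CCNB1, the cyclin of mitotic entry (chromosome 20, 10507979 to 10517702), had 284, 298 and 298 CPM in the knockout libraries and 105, 104 and 90.9 CPM in wild type. This was the largest change of the group, at 1.55 ± 0.05 on the log2 scale (edgeR adjusted p = 1.89e-14). CCNA2, the cyclin of S phase and G2, had 165, 170 and 161 CPM in the knockout libraries and 67.4, 62.5 and 56.8 CPM in wild type (log2 fold change 1.41 ± 0.06, edgeR adjusted p = 1.93e-13). CCNB2, a second B-type cyclin found mostly at the Golgi, rose with a smaller value, at 82.0, 82.5 and 86.5 CPM in knockout cells and 53.2, 54.3 and 49.4 CPM in wild type (0.68 ± 0.06, edgeR adjusted p = 3.92e-09). The kinase gene CDK1 had 47.3, 47.2 and 45.7 CPM in the knockout libraries, above the 25.3, 26.5 and 32.5 CPM of wild type (0.73 ± 0.08, edgeR adjusted p = 2.45e-07).

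FOXM1, a transcription factor of G2/M genes, had 30.2, 30.1 and 30.7 CPM in knockout cells and 17.7, 15.8 and 16.3 CPM in wild type. The knockout libraries were nearly equal to each other and all higher, by 0.87 ± 0.08 on the log2 scale (edgeR adjusted p = 1.12e-08). Of the 2 CDC25 phosphatase genes, which activate CDK1, 1 rose. CDC25C was at 16.9, 17.2 and 15.9 CPM in the knockout libraries and at 9.99, 9.91 and 9.34 CPM in wild type, without overlap (0.77 ± 0.10, edgeR adjusted p = 9.14e-07). CDC25B (chromosome 13, 51395118 to 51404718), which acts at the centrosome early in mitotic entry, was at 82.0, 79.2 and 70.1 CPM in the knockout libraries and at 80.4, 75.6 and 71.5 CPM in wild type. Here the groups overlapped, with a log2 fold change of 0.02 (95% interval -0.11 to 0.16, edgeR adjusted p = 0.748). Its value was below 0 with scaling by library size only (-0.026), without knockout replicate 1 (-0.020) and without wild-type replicate 3 (-0.016), and was not called in any of these.

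All 8 genes for mitotic kinases and checkpoint proteins rose, over a wide range. BIRC5, or survivin, a subunit of the chromosomal passenger complex, had 224, 223 and 217 CPM in the knockout libraries and 84.8, 81.3 and 92.1 CPM in wild type. It changed most in this group, by 1.36 ± 0.05 on the log2 scale (edgeR adjusted p = 5.64e-14). PLK1, the Polo kinase of spindle assembly, had 134, 141 and 139 CPM in knockout cells and 64.1, 63.3 and 60.1 CPM in wild type (1.14 ± 0.05, edgeR adjusted p = 5.08e-13). BUB3, which brings checkpoint proteins to kinetochores, had 213, 230 and 228 CPM in the knockout libraries and 112, 104 and 105 CPM in wild type (1.06 ± 0.05, edgeR adjusted p = 1.26e-12). TTK, the kinase that starts the checkpoint signal, averaged 30.4 ± 1.84 CPM in knockout cells and 15.4 ± 1.84 CPM in wild type (SD, n = 3 each), a change of 0.99 ± 0.09.

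Both Aurora kinase genes rose by nearly equal amounts. AURKA, of the spindle poles, had 42.1, 40.5 and 41.6 CPM in knockout cells and 26.9, 27.9 and 24.8 CPM in wild type. AURKB, of the passenger complex, had 72.9, 75.4 and 74.7 CPM in knockout cells and 48.8, 47.7 and 46.7 CPM in wild type. The log2 fold change was 0.64 ± 0.07 for AURKA and 0.64 ± 0.05 for AURKB, and neither passed the test against 1.5-fold (glmTreat adjusted p = 0.223 and 0.163). BUB1, a checkpoint kinase of the kinetochore, averaged 79.0 ± 4.33 CPM in knockout cells and 51.6 ± 5.48 CPM in wild type (0.62 ± 0.07). BUB1B, or BUBR1, which inhibits CDC20 as part of the checkpoint complex, had 92.1, 102 and 89.8 CPM in the knockout libraries and 81.0, 78.6 and 79.2 CPM in wild type. Its groups were close but did not overlap, and of the genes that rose it changed least, by 0.25 ± 0.06 (edgeR adjusted p = 5.47e-04).

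The 5 centromere and kinetochore genes all rose, with a median of 0.59 on the log2 scale, and 1 of them passed the test against 1.5-fold. That gene was NDC80, the microtubule-binding subunit of the outer kinetochore. It had 33.4, 38.9 and 33.4 CPM in knockout cells and 19.9, 21.1 and 19.5 CPM in wild type (0.80 ± 0.08, glmTreat adjusted p = 0.00638). NUF2, its partner subunit, had 42.9, 47.8 and 47.4 CPM in the knockout libraries and 35.4, 39.5 and 28.1 CPM in wild type, and its wild-type replicate 3 was the lowest. Its change was 0.42 ± 0.10 (edgeR adjusted p = 0.00152), and 0.30 without that replicate by the same fit. CENPA, the histone H3 variant that marks centromeres, averaged 66.8 ± 1.28 CPM in knockout cells and 44.4 ± 1.97 CPM in wild type (0.59 ± 0.06). The kinetochore motor CENPE and the large coiled-coil protein gene CENPF changed by 0.69 ± 0.08 and 0.54 ± 0.08.

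All 11 spindle motors and microtubule-binding proteins rose, and 8 of them passed the test against 1.5-fold. KIF11, the motor that pushes spindle poles apart, changed most, with 112, 126 and 124 CPM in the knockout libraries and 45.4, 46.1 and 42.1 CPM in wild type (1.44 ± 0.06, edgeR adjusted p = 2.46e-13). PRC1, which bundles the microtubules of the central spindle, had 220, 225 and 226 CPM in knockout cells and 102, 105 and 96.9 CPM in wild type (1.14 ± 0.05, edgeR adjusted p = 1.94e-13). The motors of the midzone and midbody followed closely, with KIF20A at 1.01 ± 0.06, KIF20B at 1.02 ± 0.08 and KIF23 at 0.99 ± 0.06. NUSAP1, which binds spindle microtubules near chromatin, changed by 0.98 ± 0.07 and HMMR, a spindle-pole and hyaluronan-binding protein, by 0.97 ± 0.08. TPX2, the activator of AURKA, averaged 167 ± 6.08 CPM in knockout cells and 97.6 ± 5.72 CPM in wild type (0.77 ± 0.05). The other 3 changed by less than 1.5-fold, namely DLGAP5 (0.53 ± 0.07), the microtubule depolymerase KIF2C (0.49 ± 0.06) and CKAP2 (0.48 ± 0.05).

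Both genes of the cleavage furrow rose, by less than 1.5-fold. ANLN, or anillin, which links actin and septins there, had 239, 253 and 242 CPM in the knockout libraries and 173, 182 and 180 CPM in wild type (0.46 ± 0.04, edgeR adjusted p = 3.71e-08). ECT2, which activates RhoA at the furrow, averaged 51.8 ± 3.11 CPM in knockout cells and 38.4 ± 1.57 CPM in wild type (0.43 ± 0.07, edgeR adjusted p = 1.07e-05). For neither gene did the groups overlap, and neither passed the test against 1.5-fold. Of the chromosome proteins, MKI67 (the Ki-67 antigen, which coats mitotic chromosomes) had 205, 211 and 233 CPM in knockout cells and 107, 127 and 131 CPM in wild type, and TOP2A (the topoisomerase that untangles sister chromatids) had 179, 205 and 200 CPM in knockout cells and 103, 123 and 109 CPM in wild type. Their log2 fold changes were close to each other, at 0.83 ± 0.07 and 0.80 ± 0.07.

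Levels per length, in CPM per kilobase of the gene length in the count table, spanned a wide range among the 38 genes. UBE2S was highest in both genotypes, at 737 in knockout and 174 in wild type, followed by CCNB1 at 193 in knockout and 65.8 in wild type. BIRC5 was next in the knockout, at 133 in knockout and 51.6 in wild type, whereas CDC20 was next in wild type, at 85.5 in knockout and 55.5 in wild type. UBE2C ranked 4 in knockout and 11 in wild type, and KIF11 ranked 20 in knockout and 28 in wild type. Lowest in both was CENPE, at 3.05 in knockout and 1.89 in wild type. Across the 38 genes the log2 fold change had a Spearman rho of 0.21 with the wild-type level per length and -0.22 with gene length. These are descriptions over genes that share the same 6 libraries.

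Replicates of a genotype were close to each other. The coefficient of variation between libraries had a median over the 38 genes of 4.11% in knockout (0.826% for KIF20A to 8.98% for NDC80) and 6.11% in wild type (1.43% for CDC20 to 16.8% for NUF2). Knockout replicate 1 was the lowest of its group for 24 of the 38 genes and wild-type replicate 3 for 25 of 38. With either of these libraries left out, 37 of the 38 genes still passed as higher and 0 as lower.

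Proportions between partner genes are given for 15 pairs of functionally linked genes, as ratios of levels per length within each library. The pairs were chosen after the counts had been seen, so the ratios were not tested, and how often other pairs of genes separate was not computed. CCNB1 was at 3.53, 3.68 and 3.51 times CCNB2 in the knockout libraries and at 2.01, 1.95 and 1.88 times in wild type. The ratio of CCNB1 to CDK1 was 9.55, 10.05 and 10.39 in knockout and 6.58, 6.24 and 4.45 in wild type. UBE2C was at 1.26, 1.29 and 1.22 times CDC20 in the knockout libraries, so above it, and at 0.611, 0.584 and 0.517 times in wild type, so below it. The ratio of BIRC5 to AURKB, subunits of 1 complex, was 3.74 ± 0.110 in knockout and 2.27 ± 0.183 in wild type (SD, n = 3 each).

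The knockout ratio was the lower one for CDC25B to CDC25C, at 3.71 ± 0.186 in knockout and 6.24 ± 0.193 in wild type, for BUB1B to BUB1, at 1.20 ± 0.0673 in knockout and 1.56 ± 0.173 in wild type, and for KIF23 to PRC1, at 0.426 ± 0.00573 in knockout and 0.473 ± 0.0285 in wild type. In 3 of the pairs the libraries of the genotypes overlapped. AURKA stood at 0.600 ± 0.0215 times AURKB in knockout and 0.599 ± 0.0297 times in wild type, KIF20A at 11.1 ± 0.505 times KIF20B in knockout and 11.3 ± 1.09 times in wild type, and TOP2A at 1.95 ± 0.138 times MKI67 in knockout and 1.99 ± 0.162 times in wild type.

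**Figure D3:**
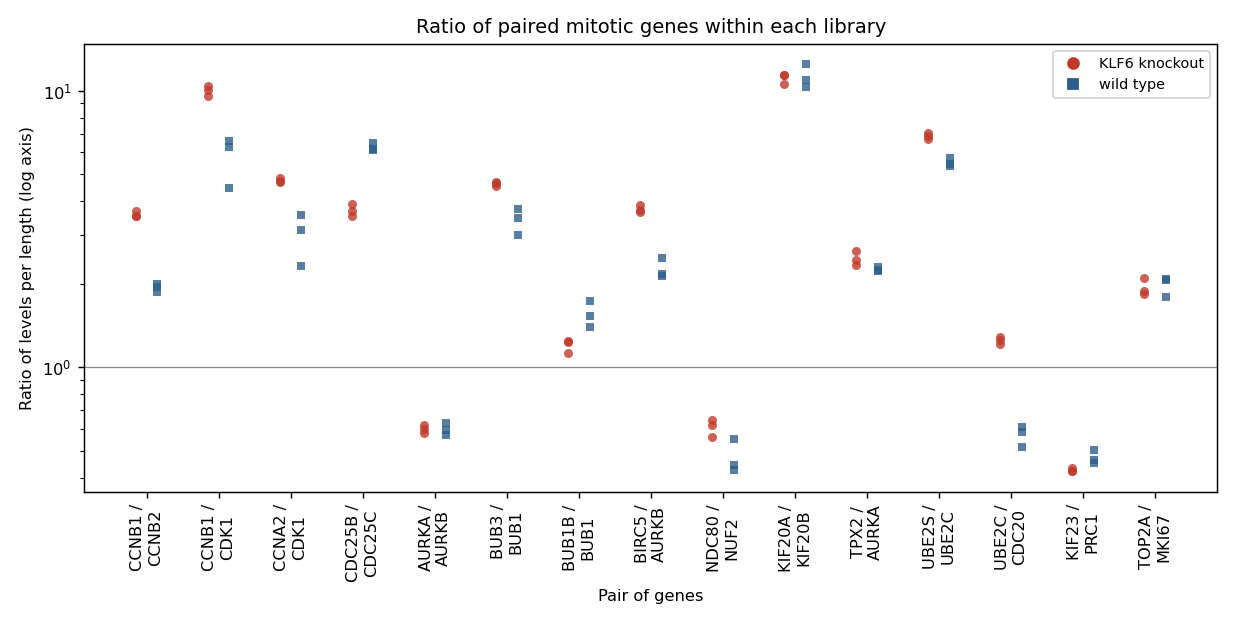
Ratio of the levels per length of 15 pairs of mitotic genes within each library, on a log axis, with knockout libraries as circles and wild-type libraries as squares. UBE2C lies above CDC20 in the 3 knockout libraries and below it in the 3 wild-type libraries, while the circles and squares of AURKA to AURKB coincide.

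The 38 genes lie on 20 chromosomes, and the median of all tested genes differed from chromosome to chromosome. The median log2 fold change of the tested genes of a chromosome was 0.48 for chromosome 20, which holds CCNB1, and 0.45 for chromosome 26, which holds KIF11, BUB3, KIF20B and MKI67. It was -0.39 for chromosome 3 (CDC20, KIF2C and NUF2), -0.43 for chromosome 12 (CKAP2) and -0.57 for chromosome 28 (CDK1). With each chromosome's median taken out, 37 of the 38 genes stayed above 0 and their median was 0.87. CDC25B was then at -0.054, UBE2S at 1.76, CCNB1 at 1.08 and KIF11 at 0.99. The value of 4 genes shrank by over 1.5 times, to 0.61 for BUB3, 0.57 for KIF20B, 0.43 for NDC80 and 0.38 for MKI67. For 7 it grew by over 1.5 times, to 1.30 for CDK1, 1.02 for CDC20, 0.91 for CKAP2, 0.88 for KIF2C, 0.82 for NUF2, 0.82 for DLGAP5 and 0.54 for BUB1B. Of the 18 genes on chromosomes whose median lay within 0.25 of 0, 17 rose. The part of these shifts in single genes was not tested.

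**Figure D4:**
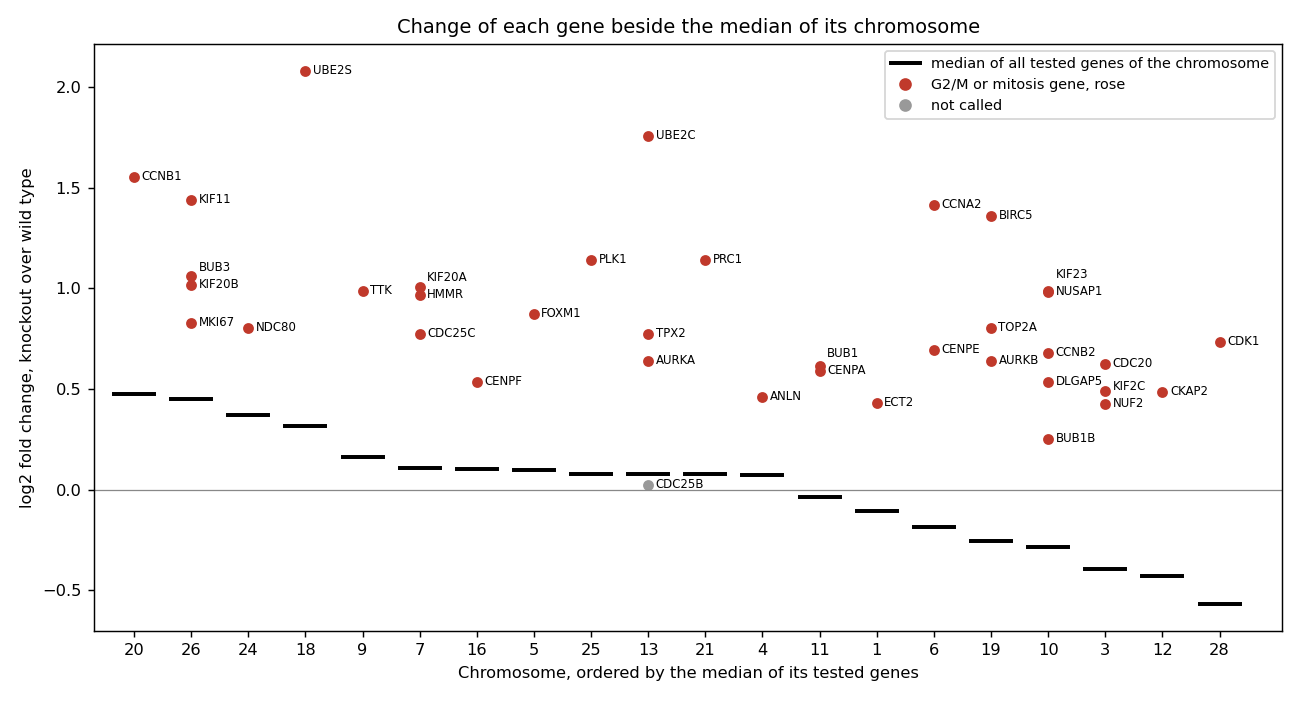
Log2 fold change of each of the 38 genes (points) on its chromosome, beside the median of all tested genes of that chromosome (bars), with chromosomes ordered by that median. All points except CDC25B on chromosome 13 lie above their bar, on chromosomes shifted up (20 and 26) and on chromosomes shifted down (12 and 28).

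Other genes of mitosis mostly rose as well. In 11 further lists, 160 of 172 symbols were in the file and all 160 were tested, of which 110 rose, 20 fell and 30 were not called, beside the same 37.1% and 37.6% of all tested genes. Their median log2 fold change was 0.49. Of 20 inner kinetochore and centromere genes, 18 rose and 0 fell (also 0 by DESeq2, by limma-voom and at an unadjusted p under 0.05, but 1 without wild-type replicate 3), led by CENPK at 2.83-fold, with CENPT and CENPQ at 1.43 ± 0.06 and 1.42 ± 0.09 on the log2 scale. The scaffold gene CENPC, at -0.02, and CENPX, at -0.11, were not called; both were named after their values were seen. Of 15 outer kinetochore genes, 10 rose, led by ZWINT (1.58 ± 0.08), SKA1 (1.46 ± 0.09) and SPDL1 (1.27 ± 0.09), and PMF1 fell (-0.63 ± 0.08, and -0.23 with the median of its chromosome 3 taken out). Of 8 genes of the spindle checkpoint and passenger complex, 7 rose. TRIP13, an ATPase that takes checkpoint complexes apart, averaged 65.2 ± 2.75 CPM in knockout cells and 17.4 ± 1.10 CPM in wild type (1.91 ± 0.07), and CDCA8, or borealin, changed by 1.10 ± 0.05. ZWINT lies on chromosome 26, and CENPK, SPDL1 and TRIP13 on chromosome 20, both with a median above 0. SPDL1 was at 0.79 with that median taken out.

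Of 14 core subunits of the anaphase-promoting complex, which works with UBE2C and UBE2S, 4 rose, 4 fell and 6 were not called, shares below the 37.1% of all tested genes that rose and the 37.6% that fell. CDC23, among those that rose (0.53 ± 0.09), overlaps KIF20A, which has more counts, and their reads cannot be told apart without a strand setting. ANAPC16 fell by 1.15 ± 0.08, ANAPC13 by 0.66 ± 0.08 and ANAPC4 by 0.53 ± 0.07. With the chromosome median taken out ANAPC16, on chromosome 28, was at -0.58 and ANAPC4, on chromosome 6, at -0.34. ANAPC11, the catalytic RING subunit, was picked out after its values were seen. It had 249, 74 and 288 counts in the knockout libraries and 62, 65 and 62 in wild type, so knockout replicate 2 stood near wild type, and its value of 1.72 was not called (edgeR adjusted p = 0.0584). ESPL1, or separase, and FBXO5, or EMI1, an inhibitor of the complex, rose (0.78 ± 0.05 and 1.01 ± 0.10).

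All 8 condensin subunits, which compact mitotic chromosomes, rose, by 0.37 to 0.87. Of 10 cohesin subunits and regulators, 3 rose and 6 fell. Over all tested genes 37.1% rose and 37.6% fell, which stands beside every count of this paragraph. CDCA5, or sororin, was at 1.07 ± 0.08 and RAD21 at -0.61 ± 0.06. RAD21 lies on chromosome 14, whose median was -0.82, and was at 0.21 with that median taken out, a change of direction. WAPL, on chromosome 28, fell (-0.39 ± 0.07) but was at 0.18 with its chromosome median taken out. STAG1, STAG2, NIPBL and PDS5A also fell. With their chromosome medians taken out they stayed below 0, at -0.44, -0.45, -0.80 and -0.03. SMC3, on chromosome 26, rose (0.44 ± 0.06) but was then at -0.005. Splitting the list into these 2 complexes was done after the values were seen. Of 26 other spindle genes, 22 rose, with CKAP2L at 1.28 ± 0.06, FAM83D at 1.19 ± 0.08 and the microtubule destabiliser STMN1 at 664 ± 14.8 CPM in knockout cells and 295 ± 8.80 CPM in wild type (1.17 ± 0.04), and NUMA1 fell (-0.55 ± 0.06, and -0.36 with the median of its chromosome 15 taken out). Of 12 centrosome genes, 6 rose, with the centriole kinase PLK4 at 0.81 ± 0.08 and NEK2 at 0.67 ± 0.06, and PCNT, or pericentrin, fell (-0.71 ± 0.10). Of 9 further cytokinesis genes 6 rose, among them CEP55 (1.73 ± 0.07), which recruits the machinery of abscission, on chromosome 26.

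Regulators of mitotic entry and exit had 10 that rose and 3 that fell among 15. The activator CDC25A (1.51 ± 0.07) and WEE1, a kinase that inhibits CDK1 (1.26 ± 0.07), both rose, as did GTSE1 (1.39 ± 0.06), while ENSA, an inhibitor of the phosphatase PP2A, fell (-0.52 ± 0.05). ENSA lies on chromosome 3 and was at -0.12 with that chromosome's median taken out. PPP2R2A, on chromosome 8, fell (-0.34 ± 0.06) and was at -0.51 with its chromosome median taken out. BORA, on chromosome 12, fell (-0.30 ± 0.10) but was then at 0.13. Of 15 genes of the DREAM and MuvB complexes, the retinoblastoma family and E2F factors, 12 rose. MYBL2, or B-MYB, averaged 414 ± 9.91 CPM in knockout cells and 187 ± 6.91 CPM in wild type (1.15 ± 0.05), and E2F4 and LIN9 changed by 1.08 ± 0.06 and 1.02 ± 0.12. Of 5 CDK inhibitors 2 rose, CDKN2D (0.74 ± 0.09) and CDKN2C (0.49 ± 0.09, and 0.89 with the median of its chromosome 3 taken out), and 2 fell. These shares are near the 37.1% of all tested genes that rose and the 37.6% that fell. CDKN1B, or p27, averaged 42.7 ± 2.43 CPM in knockout cells and 75.6 ± 3.52 CPM in wild type (-0.82 ± 0.06). CDKN1A, or p21, was at -0.10 ± 0.04 (edgeR adjusted p = 0.0396), a call that was lost in 9 of 13 alternative fits (edgeR, DESeq2 or limma adjusted p 0.00391 to 0.134). It was at -0.21 with the median of its chromosome 23 taken out.

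**Figure D5:**
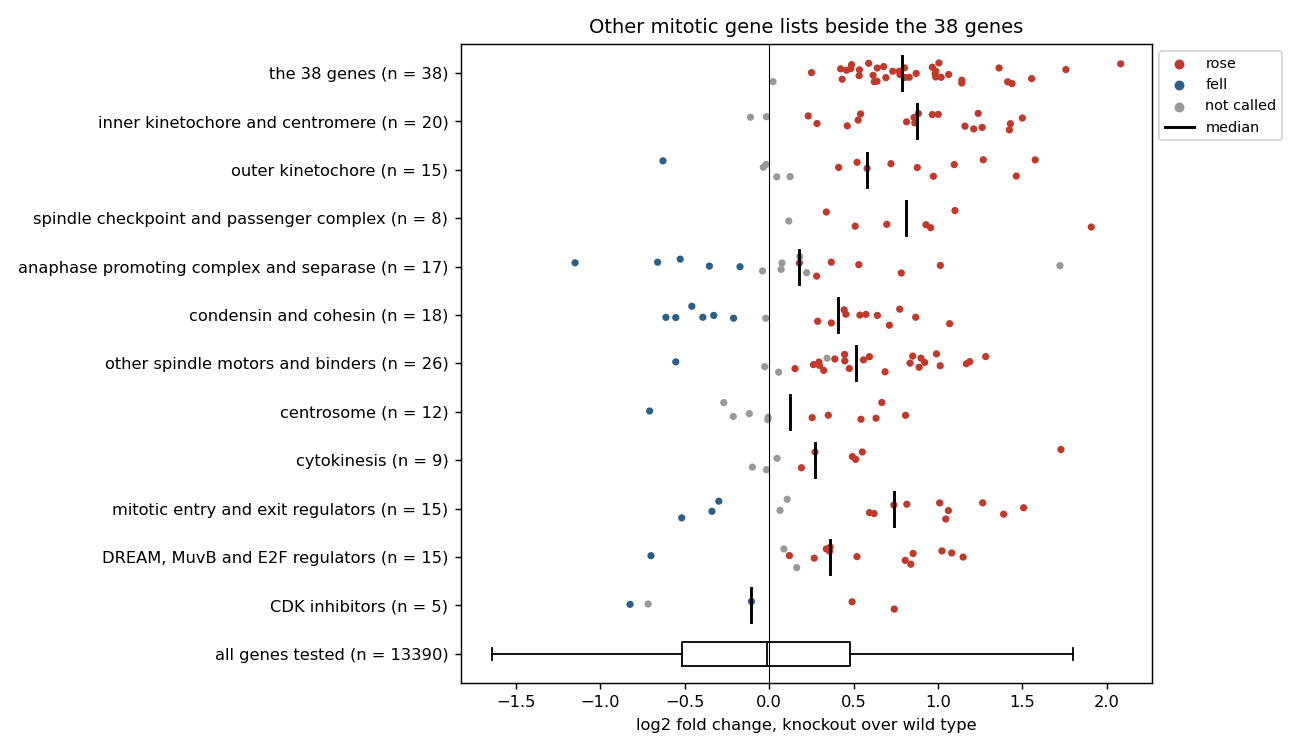
Log2 fold change (knockout over wild type) of the 38 genes and of 11 further lists of mitotic genes, with 1 point per tested gene and a bar at each list's median. The box at the foot gives all 13390 tested genes (quartiles, whiskers from the 5th to the 95th percentile). Lists that spread to both sides of 0 include those of the anaphase-promoting complex with separase and of condensin with cohesin. The lists of the centrosome and of CDK inhibitors do so too, while 18 of 20 inner kinetochore genes are called higher.

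Markers of cell types moved between the genotypes as well. Of all tested genes 37.1% were called higher and 37.6% lower, which stands beside the counts of markers below. The summed level of 8 luminal markers lay between 4090 and 4242 CPM in the knockout libraries and between 11372 and 12664 CPM in wild type, with 6 of the 8 lower by the test. For 6 basal markers it lay between 2872 and 2944 CPM in knockout and between 5285 and 5360 CPM in wild type, with 4 of the 6 lower and 2 higher. For 9 fibroblast markers it was 245 to 258 CPM in knockout cells and 1054 to 1250 CPM in wild type, with 4 lower, 1 higher and 3 too low to test. Most of that sum was DCN, with a mean of 229 CPM in knockout cells and 1134 CPM in wild type, while COL1A2 was at 5.18 CPM in knockout cells and at 0 in wild type and VIM, not called, at 2.81 CPM in knockout cells and 1.94 CPM in wild type. For 5 endothelial markers the sum was 30.6 to 32.5 CPM in knockout cells and 3.64 to 4.70 CPM in wild type. PECAM1 was higher in the knockout, at 31.3 CPM in knockout cells and 0.219 CPM in wild type, VWF was lower, at 0.242 CPM in knockout cells and 3.57 CPM in wild type, and KDR and CLDN5 had 0 counts in all libraries. For 5 leukocyte markers the sum was 15.7 to 17.6 CPM in knockout cells and 9.22 to 11.3 CPM in wild type. AIF1 was higher, at 14.5 CPM in knockout cells and 5.98 CPM in wild type, as was CSF1R, at 1.62 CPM in knockout cells and 0.295 CPM in wild type, CD74 was lower, at 0.129 CPM in knockout cells and 4.15 CPM in wild type, and PTPRC had 0 counts in all libraries. Their part in the change of the 38 genes was not tested.

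The authors' deposited table of their own comparison lists 9532 genes, of which 51.8% have a value above 0. It lists 37 of the 38 genes, all with a value above 0, and does not list CDC25B. In the authors' deposited table the log2 fold change was 2.10 for UBE2S and 0.26 for BUB1B, the extremes among these genes. The labels and notes name no strand setting for the counting, so reads of overlapping genes cannot be told apart: UBE2C overlaps DNTTIP1, KIF20A overlaps CDC23, NUSAP1 overlaps OIP5 and HMMR overlaps NUDCD2, each with fewer counts than the gene of the 38. CDC23 and OIP5 are also counted among the genes of the other lists that rose, so this limit holds for their calls too.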

How the data were processed

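RNA-seq was done on 3 KLF6 knockout and 3 wild-type libraries. The authors deposited raw counts per gene with gene lengths and coordinates, and the submitters' processing notes name HISAT2 2.0.5 and featureCounts 1.5.0-p3. Neither these notes nor the file headers name a genome build or a strand setting. The authors' deposited table of their own comparison gives a log2 fold change and an adjusted p-value per gene and was used only where named. 8 columns of normalized values or group means were not used.

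Counts were tested in R 4.3.3 with edgeR 4.0.16 (TMM, filterByExpr with minimum counts of 10 and 15 in total, robust quasi-likelihood fit), keeping 13390 genes. Benjamini-Hochberg adjusted p-values up to 0.05 were called, over all tested genes. SE is the log2 fold change divided by the square root of F. Libraries of about equal depth leave little difference in counting precision between libraries. Between genes it differed, with an SE from 0.04 for CDC20 to 0.10 for NUF2 among the 38. Each of the 38 genes had 171 or more counts in every library. Alternatives used DESeq2 1.42.0, limma 3.58.1, other scalings and filters, and each library left out. The procedure was run on simulated counts in which few genes were changed, as many up as down, and no whole chromosome was shifted. It therefore does not show how the procedure performs where most genes are called, as here. The 38 genes and all lists were chosen with earlier results of these data known. Named genes are the 38, KLF6 and, per other list, up to 3 called genes per direction with the largest change at 1 CPM or more. CENPC, CENPX, ANAPC11, WAPL, NIPBL, PDS5A, SMC3, single markers and the gene pairs were named after their values were seen.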

Additional observations from a re-analysis of the deposited data

How the results depend on the processing

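In all 13 alternative fits 37 of the 38 genes rose and 0 fell, and the median log2 fold change lay between 0.74 and 0.82. It was 0.87 with the chromosome medians taken out. From 19 to 23 of the 38 passed the test against 1.5-fold in the 11 fits that gave it. Without the 20 genes on shifted chromosomes, an alternative chosen after seeing the data, 17 of 18 rose, fewer because fewer genes remain. CDC25B reversed to -0.026 with library size only and to -0.054 with the chromosome median taken out; with 1 library left out it ranged from -0.020 to 0.090. With the replicate block, 37 rose and 22 passed the test against 1.5-fold. Same-numbered libraries did not deviate together (r = -0.04, 0.07 and -0.02), so the numbers are not taken to pair samples, and knockout replicate 1 correlated best with wild-type replicate 3 (0.12). Scaling by library size only moved the median of all genes to -0.06, from -0.01 in the TMM fit. Of the 160 genes of the other mitotic lists, 102 to 110 rose and 17 to 24 fell. The fall of E2F5 was lost without knockout replicate 3, and that of BORA in 3 of 13 fits. With the chromosome medians taken out E2F5 was at 0.12, BORA at 0.13, RAD21 at 0.21 and WAPL at 0.18, all reversed. SMC3, which rose, was then at -0.005. These are not all the genes of the other lists that changed sign in this way. A motif search in promoters was not run, because no promoter sequence was used here. With 3 libraries a genotype, changes well under those of BUB1B may go uncalled at this depth.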
